A study of Brassica napus with 48 samples.

Results

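FAE1 and FAD2, key genes of fatty acid elongation and desaturation, were followed in developing rapeseed (Brassica napus) seeds through 4 genes of the 101040 in the deposited table. They were taken by identifier: BnaA08g11130D and BnaC03g65980D, the FAE1 copies on A08 and C03, and BnaA05g26900D and BnaC05g40970D, the FAD2 copies on A05 and C05. Of these names, the study's readable tables give only that of BnaC05g40970D, which they match to Arabidopsis AT3G12120 (FAD2), and the other 3 were not checked against an annotation here. RNA came from seeds at 14 and 7 days after flowering (DAF) of the spring hybrids Solar and Lumen, grown in the field under a reduced source-sink (S–S) ratio or as unmanipulated controls, at a late or an optimal sowing date. Shading lowered the S–S ratio: black nets cut the sunlight by 75%, stood over the plots from early flowering until 15 DAF and so were in place at both seed harvests. The 4 factors make 16 groups of 3 replicate libraries, 48 libraries in all, from a split–split plot field trial with 24 plots at each time, and every sample is whole seed and not one cell type.

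Seed oil is made of fatty acids that are synthesised in plastids, desaturated and elongated at the endoplasmic reticulum and then built into triacylglycerol. FAD2 is the desaturase that turns oleic acid into linoleic acid on membrane lipids, and it is active in vegetative tissue as well as in seeds. FAE1 is the seed-specific ketoacyl-CoA synthase that extends oleoyl-CoA towards eicosenoic and erucic acid, and in rapeseed its activity belongs mainly to the phase of oil accumulation in the embryo. Rapeseed is an allotetraploid, so a gene usually has a copy on an A chromosome and a related one, its homoeolog, on a C chromosome. Such copies are close in sequence, and Brassica napus holds further FAD2 copies that were not analysed here, so reads shared between copies may have been divided between them by estimation.

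Values are TPM (transcript abundance scaled to a fixed library total), a level per transcript length that was normalized between libraries and rounded to whole numbers, so that a listed 0 means less than 0.5 TPM. The values summed to between 908993 and 1219379 TPM per library (median 984648.5), and read depth per value is unknown. Genotype labels were checked with 47 genes found in all 6 late-sown Solar libraries at 14 DAF and at 0 in the matching 6 Lumen libraries, and 51 genes with the opposite pattern, from which a Solar share of each library was computed. The other 18 Lumen-labelled libraries had a Solar share of 0 to 1.69%. Among the other 18 Solar-labelled libraries the share ran from 1.34% to 99.8%. It was at least 99% in 5 of them, below 2% in 2 and between these limits in 11, with means of 65.7% for optimally sown seeds at 14 DAF, 79.0% for late-sown seeds at 7 DAF and 21.8% for optimally sown seeds at 7 DAF. Libraries labelled Solar therefore hold Lumen transcripts to different degrees outside the late sowing date at 14 DAF, and the FAD2 and FAE1 differences by time, S–S ratio and sowing date, and the counts of lipid genes for these factors, are also given for Lumen alone. In whole seeds, fewer cells of a type and less RNA per cell cannot be told apart.

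Both FAD2 copies were among the abundant transcripts of the seed, and the A05 copy was the higher one over the series. Its level averaged 261.8 ± 88.7 TPM (SD, n = 48), with 333 genes of the table above it, against 114.1 ± 45.9 TPM for the C05 copy, with 1251 genes above. Both were detected in 48 of 48 libraries. The order of the 16 group means nevertheless differed between the copies: the A05 copy was highest in Lumen seeds at 14 DAF and the C05 copy in Solar-labelled seeds at 14 DAF.

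The A05 copy had 185, 189 and 173 TPM at 14 DAF, against 234, 115 and 110 TPM at 7 DAF, in shaded late-sown Solar. In shaded Solar of the optimal date it had 172, 242 and 153 TPM at 14 DAF, against 277, 216 and 275 TPM at 7 DAF. Among Solar controls of the late date, values were 215, 208 and 201 TPM at 14 DAF and 171, 123 and 165 TPM at 7 DAF. These 3 pairs of groups show a separation of the times in the late controls alone, with 14 DAF above 7 DAF, and overlapping values in both shaded pairs. Solar controls of the optimal date had 258, 403 and 348 TPM at 14 DAF, against 163, 218 and 156 TPM at 7 DAF, again without overlap. How many of all genes are likewise apart between groups of 3 libraries was not counted. Overlap and separation, here and below, therefore only describe the values.

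For Lumen, the A05 copy had 342, 375 and 468 TPM at 14 DAF and 235, 288 and 302 TPM at 7 DAF under late sowing and shading. Under optimal sowing and shading it had 322, 250 and 290 TPM at 14 DAF and 220, 288 and 283 TPM at 7 DAF. Only the shaded seeds of the optimal date overlapped between the times in this genotype. Lumen controls had 357, 401 and 377 TPM at 14 DAF, against 293, 276 and 248 TPM at 7 DAF, when sown late. When sown at the optimal date they had 367, 486 and 355 TPM at 14 DAF, against 281, 233 and 259 TPM at 7 DAF. Ordered by group mean, neighbouring groups of the A05 copy overlapped in range except at a single step, between shaded Solar of the optimal date at 7 DAF, which ranked 10, and late Solar controls at 14 DAF, which ranked 11.

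The C05 copy had 210, 168 and 152 TPM at 14 DAF, against 90, 156 and 117 TPM at 7 DAF, in shaded late-sown Solar. In shaded Solar of the optimal date it had 183, 141 and 177 TPM at 14 DAF, against 72, 62 and 71 TPM at 7 DAF. Among Solar controls of the late date it had 212, 236 and 196 TPM at 14 DAF and 114, 115 and 131 TPM at 7 DAF. The times were apart in these groups except for the shaded late seeds, where 1 library of 7 DAF, at 156 TPM, lay above the lowest of 14 DAF. Solar controls of the optimal date had 168, 131 and 181 TPM at 14 DAF, against 87, 61 and 80 TPM at 7 DAF.

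In Lumen the C05 copy did not exceed 148 TPM in any of 24 libraries. It had 106, 107 and 148 TPM at 14 DAF and 71, 74 and 72 TPM at 7 DAF with late sowing and shading, and 107, 93 and 92 TPM at 14 DAF and 73, 65 and 63 TPM at 7 DAF with optimal sowing and shading. Late-sown controls had 116, 112 and 111 TPM at 14 DAF, against 76, 73 and 78 TPM at 7 DAF. Only the controls of the optimal date overlapped, with 97, 66 and 100 TPM at 14 DAF and 78, 98 and 89 TPM at 7 DAF. Along the order of group means, neighbouring groups of the C05 copy overlapped except between late Lumen controls at 14 DAF, which ranked 8, and shaded Lumen of the optimal date at 14 DAF, which ranked 9.

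**Figure D1:**
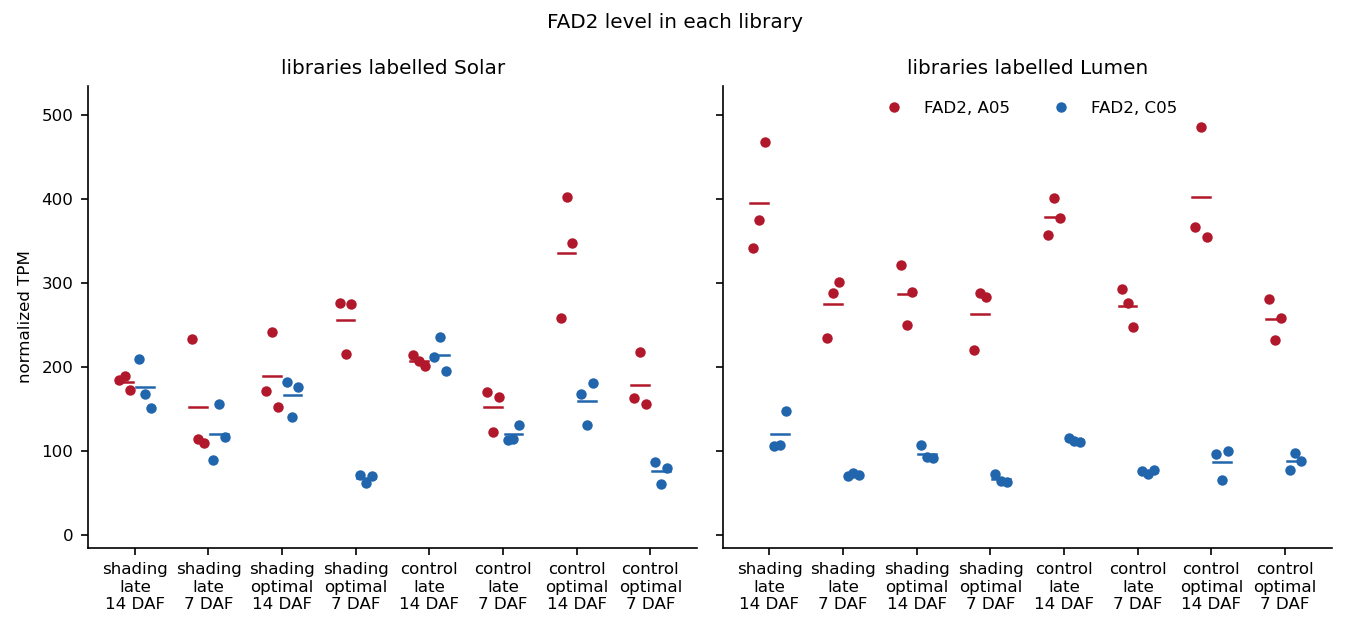
FAD2 level in each library (normalized TPM, vertical axis) by S–S ratio, sowing date and time, with Solar-labelled libraries in the left panel and Lumen in the right one. Points are single libraries, red for the A05 copy and blue for the C05 copy, and short lines are means of 3. The copies lie far apart in every Lumen group and next to each other in late-sown Solar seeds at 14 DAF.

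Developmental time was the factor under which both FAD2 copies moved the same way: each was higher at 14 DAF than at 7 DAF. The A05 copy averaged 297.4 ± 98.5 TPM at 14 DAF, against 226.2 ± 61.0 TPM at 7 DAF (SD, n = 24 each), a log2 fold change of 0.37 ± 0.073 (SE; limma, adjusted p = 7e-05). The C05 copy averaged 142.1 ± 45.7 TPM at 14 DAF, against 86.1 ± 24.2 TPM at 7 DAF, a log2 fold change of 0.69 ± 0.059 (limma, adjusted p = 8.37e-12). All fold changes are on the log2(TPM + 0.5) scale, and p-values are adjusted over the 53810 genes tested, of which 33.8% passed the threshold of 0.01 for developmental time. In the Lumen libraries alone, where 21.3% of 53585 genes passed, the A05 copy rose by 0.44 ± 0.076 (limma, adjusted p = 0.000213) and the C05 copy by 0.45 ± 0.071 (limma, adjusted p = 8.13e-05). Summed over both copies, FAD2 in Solar-labelled seeds reached 408.5 ± 68.6 TPM at 14 DAF, against 281.6 ± 41.3 TPM at 7 DAF, and in Lumen seeds 470.4 ± 71.8 TPM at 14 DAF, against 343.0 ± 24.7 TPM at 7 DAF (SD, n = 12 each).

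The rise with time did not have the same size in every setting. Within single combinations of the other factors, the C05 copy passed the threshold in 4 of 8. These were optimally sown Solar under shading, with a log2 fold change of 1.28 ± 0.17, Solar controls of the optimal date with 1.07 ± 0.17, Solar controls of the late date with 0.84 ± 0.17 and late-sown Lumen under shading with 0.71 ± 0.17 (limma, adjusted p between 4.79e-06 and 0.00186). The A05 copy passed in 1 of 8, the Solar controls of the optimal date, at 0.90 ± 0.21 (limma, adjusted p = 0.0023). It had a log2 difference of -0.46 ± 0.21 in shaded Solar of the optimal date (limma, adjusted p = 0.166). In these 8 contrasts of 3 against 3 libraries the shares of all genes past the threshold were 7.83% (late) and 5.76% (optimal) in shaded Solar, 9.96% (late) and 8.64% (optimal) in Solar controls, 13.5% (late) and 1.12% (optimal) in shaded Lumen and 10.9% (late) and 5.68% (optimal) in Lumen controls.

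The time difference of the C05 copy was larger in Solar-labelled than in Lumen seeds by 0.49 ± 0.12 on the log2 scale (interaction, limma, adjusted p = 0.00607), a term for which 4.51% of genes passed. It missed the threshold at an adjusted p of at most 0.0107 when any of 6 single libraries was left out, and at 0.0735, 0.021 and 0.0851 (limma) when all libraries of replicate 1, 2 or 3 were. The mean Solar share of the Solar-labelled libraries also differed between the times, as given above, and its part in this interaction was not tested. The same interaction of the A05 copy was -0.13 ± 0.15 (limma, adjusted p = 0.613). Seed coat markers moved with time as well: the summed level of MYB5 and TT12, which act in seed coat development and pigment transport, was 14 to 76 TPM at 14 DAF (median 37.0) and 7 to 29 TPM at 7 DAF (median 14.5). MYB5 and TT12 passed the test upwards, 2 of 2, while 1 of 2 copies of SHP1, a valve margin and ovule gene taken as a pod wall marker, rose and the other did not pass. The part of seed coat tissue in the FAD2 rise was not tested.

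Shading had no effect on either FAD2 copy that passed the test. The A05 copy averaged 250.2 ± 82.4 TPM under shading and 273.4 ± 94.9 TPM in controls (SD, n = 24 each), a log2 fold change of -0.12 ± 0.073 (limma, adjusted p = 0.291). The C05 copy averaged 111.3 ± 44.6 TPM under shading and 116.9 ± 48.04 TPM in controls, a log2 fold change of -0.07 ± 0.059 (limma, adjusted p = 0.445). Over all genes, 9.21% passed for the S–S ratio. In Lumen libraries alone, where 3.15% passed, the log2 fold changes were -0.10 ± 0.076 for the A05 copy (limma, adjusted p = 0.519) and -0.05 ± 0.071 for the C05 copy (limma, adjusted p = 0.737). The largest single contrast was that of the A05 copy in optimally sown Solar at 14 DAF, with 172, 242 and 153 TPM under shading against 258, 403 and 348 TPM in controls and a log2 fold change of -0.83 ± 0.21 (limma, adjusted p = 0.0217). The values of that contrast do not overlap, and the difference did not reach the threshold. The Solar share of these libraries was 99.7%, 68.1% and 99.6% under shading and 74.7%, 10.9% and 41.3% in controls, and its part in the contrast was not tested. The interaction of time and S–S ratio for this copy was -0.48 ± 0.15 (limma, adjusted p = 0.054), and -0.23 ± 0.15 in Lumen alone (limma, adjusted p = 0.668). The seed coat marker TT12 was lower under shading by a log2 fold change of -0.50 ± 0.092 (limma, adjusted p = 0.000152), and MYB5, at -0.15, did not pass.

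Sowing date separated the copies. The C05 copy was higher in late-sown seeds, with 126.7 ± 48.7 TPM in late and 101.5 ± 40.1 TPM in optimal sowing (SD, n = 24 each), a log2 fold change of 0.32 ± 0.059 (limma, adjusted p = 0.000105). The A05 copy had 252.1 ± 96.8 TPM in late and 271.5 ± 80.6 TPM in optimal sowing, with a log2 fold change of -0.15 ± 0.073 (limma, adjusted p = 0.106), and 20.9% of all genes passed for this factor. Scaling every library to the same sum turned the A05 value into -0.25 (limma, adjusted p = 0.00856). The values of both copies include the Solar-labelled libraries, whose mean Solar share differed between the sowing dates, and its part in them was not tested. In Lumen libraries alone, where 12.2% of genes passed, the difference between late and optimal sowing was 0.14 ± 0.071 for the C05 copy (limma, adjusted p = 0.158) and 0.13 ± 0.076 for the A05 copy (limma, adjusted p = 0.24), so neither passed and the sign of the A05 value turned. The summed seed coat markers were at 12 to 76 TPM (median 29.0) in late and 7 to 40 TPM (median 16.0) in optimal sowing. TT12 was higher in late-sown seeds by 0.50 ± 0.092 (limma, adjusted p = 9.79e-05), MYB5, at 0.68, did not pass, and 1 of 2 SHP1 copies was lower, at -0.47 ± 0.13 (limma, adjusted p = 0.00486). The part of these tissues in the sowing date differences was not tested.

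Among single contrasts of sowing date, the clearest opposite movement was in shaded Solar at 7 DAF. There the C05 copy had 90, 156 and 117 TPM in late and 72, 62 and 71 TPM in optimal sowing, a log2 fold change of 0.79 ± 0.17 (limma, adjusted p = 0.0016). The A05 copy had 234, 115 and 110 TPM in late and 277, 216 and 275 TPM in optimal sowing, a log2 fold change of -0.82 ± 0.21 (limma, adjusted p = 0.00622), and 6.96% of genes passed in this contrast. The Solar share of the libraries compared was 19.9%, 99.5% and 99.1% in late and 18.7%, 1.34% and 20.4% in optimal sowing. Its part in this contrast was not tested. The sowing date difference of the A05 copy depended on the genotype label by -0.57 ± 0.15 (limma, adjusted p = 0.00902), where 5.48% of genes passed, but this interaction was no longer past the threshold in 41 of 61 alternative fits.

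The genotype label moved the copies in opposite directions. Solar-labelled seeds had 207.1 ± 69.6 TPM of the A05 copy, against 316.5 ± 70.6 TPM in Lumen seeds (SD, n = 24 each), a log2 fold change of -0.65 ± 0.073 (limma, adjusted p = 6.31e-09). They had 138.0 ± 51.8 TPM of the C05 copy, against 90.2 ± 20.8 TPM in Lumen seeds, a log2 fold change of 0.54 ± 0.059 (limma, adjusted p = 3.95e-09). For this factor 26.2% of all genes passed.

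Late-sown seeds at 14 DAF, the 12 libraries in which the labels and the transcripts matched by construction of the check, showed the contrast most plainly. The A05 copy ranged from 173 to 215 TPM in the 6 Solar libraries (median 195.0) and from 342 to 468 TPM in the 6 Lumen libraries (median 376.0). The C05 copy ranged from 152 to 236 TPM in Solar (median 203.0) and from 106 to 148 TPM in Lumen (median 111.5). Neither copy overlapped between the genotypes there. A fit to these 12 libraries alone, added after seeing the data, gave log2 fold changes of -0.98 ± 0.083 for the A05 copy (limma, adjusted p = 2.54e-05) and 0.74 ± 0.11 for the C05 copy (limma, adjusted p = 0.00087), and 17.7% of genes passed in it. The sum of both copies was 390.8 ± 44.0 TPM in Solar and 503.3 ± 59.1 TPM in Lumen (SD, n = 6 each).

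Across all single combinations, the A05 copy passed with a lower level in Solar in 4 of 8, all of them late-sown, and the C05 copy passed with a higher level in Solar in 5 of 8. In shaded seeds the shares of all genes past the threshold were 16.1% (late, 14 DAF), 9.3% (late, 7 DAF), 5.29% (optimal, 14 DAF) and 1.95% (optimal, 7 DAF). In controls they were 10.3% (late, 14 DAF), 6.27% (late, 7 DAF), 0.139% (optimal, 14 DAF) and 0.658% (optimal, 7 DAF). In optimally sown seeds at 7 DAF, where the mean Solar share was lowest, neither copy passed. Log2 differences there were -0.04 ± 0.21 (A05) and 0.03 ± 0.17 (C05) under shading and -0.54 ± 0.21 (A05) and -0.23 ± 0.17 (C05) in controls. MYB5 was also higher in Solar-labelled seeds, by 1.14 ± 0.25 (limma, adjusted p = 0.000412), while TT12, at -0.15 ± 0.092, did not pass (limma, adjusted p = 0.231). Of 2 SHP1 copies, 1 was higher by 0.48 ± 0.062 (limma, adjusted p = 7.92e-08), and the part of both tissues in the FAD2 differences was not tested.

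**Figure D2:**
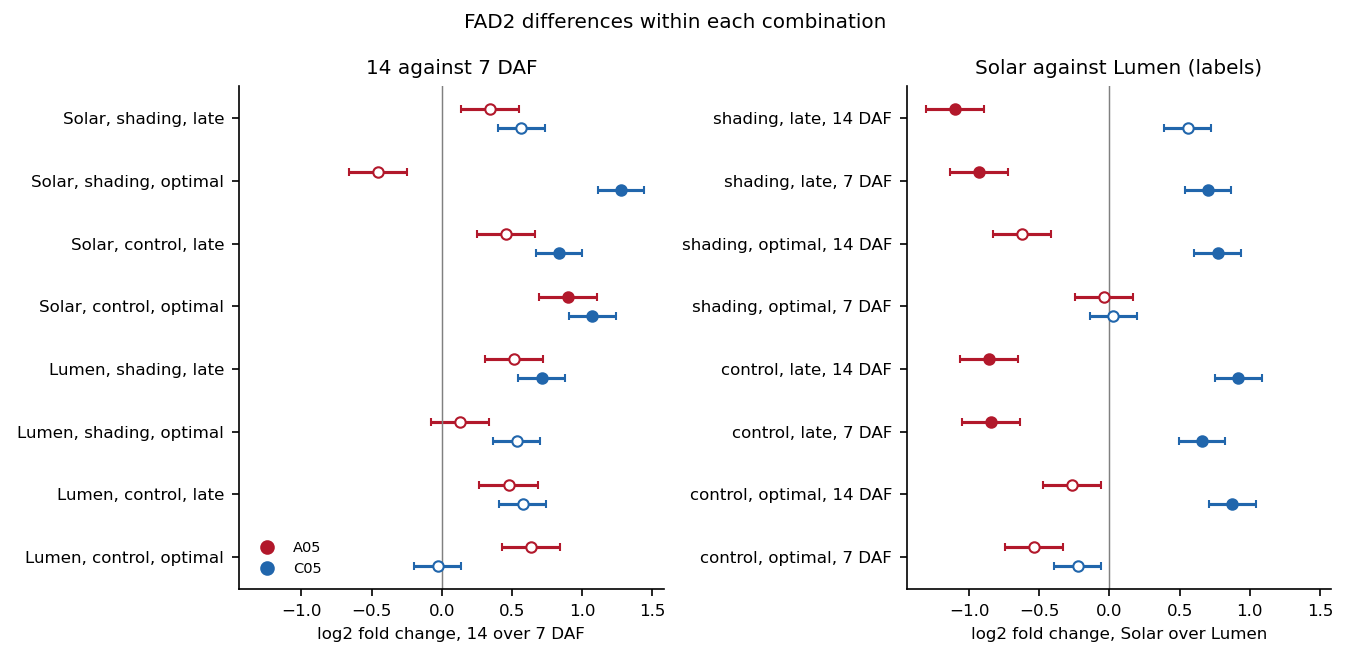
Log2 fold change (horizontal axis) of the FAD2 copies between 14 and 7 DAF (left) and between Solar-labelled and Lumen libraries (right) within each combination of the other factors, each 3 against 3 libraries. Bars are standard errors, filled points passed an adjusted p of 0.01, red is the A05 copy and blue the C05 copy. In the left panel the C05 copy passed in 4 rows and the A05 copy in 1, and in the right panel filled red points lie at negative and filled blue points at positive values.

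The balance of the homoeologs within a library summarises these opposite movements, since TPM allows genes of one library to be compared. At 14 DAF the A05 copy exceeded the C05 copy in 20 of 24 libraries, with a mean log2 ratio of 1.06 ± 0.89 (SD; 2-sided permutation test of signs, p = 2e-05). At 7 DAF it did so in 22 of 24 libraries, with a mean log2 ratio of 1.37 ± 0.76 (permutation test of signs, p = 1e-05, the smallest that 100000 permutations give). Every exception was a Solar-labelled library. The A05 copy contributed 59.9 ± 12.1% of the FAD2 transcripts of both copies in Solar-labelled seeds and 77.6 ± 3.47% in Lumen seeds (SD, n = 24 each), with a mean log2 ratio of 0.62 ± 0.77 in Solar-labelled seeds and 1.81 ± 0.31 in Lumen seeds.

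In late-sown seeds at 14 DAF the copies were level in Solar, with a log2 ratio of 0.01 ± 0.16 and an A05 share of 46.8% to 53.2%. In Lumen the ratio was 1.73 ± 0.086 and the A05 share 75.5% to 78.2% (SD, n = 6 each). The genotype difference of the ratio over all libraries was -1.19 (permutation test within combinations of the other factors, p adjusted over 8 tests of 2 homoeolog pairs and 4 factors = 8e-05). Sowing date gave a late minus optimal difference of -0.47 (permutation test, adjusted p = 0.00676), which in Lumen alone was -0.014 (permutation p = 0.925). Time gave a 14 minus 7 DAF difference of -0.32 (permutation test, adjusted p = 0.0611), in Lumen alone -0.011 (permutation p = 0.948). Shading gave -0.05 (permutation test, adjusted p = 0.721), in Lumen alone -0.04 (permutation p = 0.775). Within Lumen, the ratio ranged from 1.25 to 2.87, the highest being a control library of the optimal date at 14 DAF with 486 TPM of A05 and 66 TPM of C05.

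Over the 24 Solar-labelled libraries the FAD2 ratio followed the Solar share of the library. Pearson's r was -0.97 (permutation p = 1e-05, adjusted over 18 relations 6e-05) and Spearman's rho -0.85 (permutation p = 2e-05, adjusted 0.00012). Without the 2 libraries farthest from the median share r was -0.96. In the 18 libraries that did not enter the choice of the check genes r was -0.97, within 14 DAF -0.96, within 7 DAF -0.96 and within the optimal sowing date -0.96. Within the late sowing date r was -0.92, and -0.50 without the 2 farthest libraries, so there the relation rests on these. The levels moved in opposite senses: r with the Solar share was -0.60 for the A05 copy (permutation p = 0.00177, adjusted 0.00245) and 0.80 for the C05 copy (permutation p = 1e-05, adjusted 6e-05). For the A05 copy it did not hold within the sowing dates, where r was -0.38 in late-sown (permutation p = 0.233) and -0.47 in optimally sown seeds (permutation p = 0.12), with -0.94 within 14 DAF and -0.88 within 7 DAF. For the C05 copy r was 0.67 in late-sown (permutation p = 0.00481, and 0.36 without the 2 farthest libraries) and 0.79 in optimally sown seeds (permutation p = 0.0037), with 0.61 within 14 DAF and 0.94 within 7 DAF. This relation was examined after seeing the data.

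**Figure D3:**
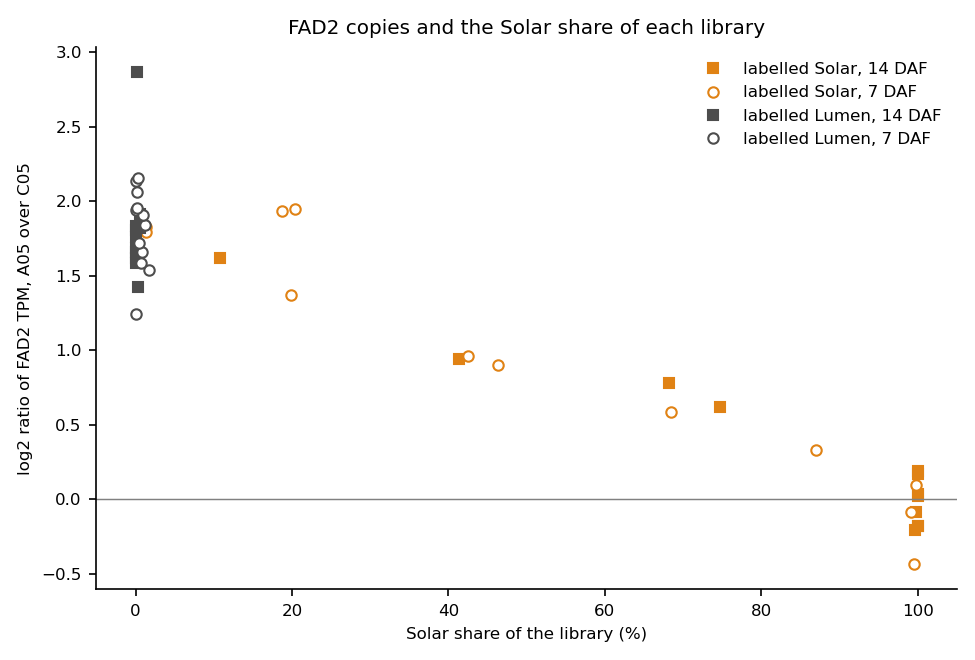
Log2 ratio of the FAD2 copies, A05 over C05 (vertical axis), against the Solar share of each library in percent (horizontal axis). Orange symbols are Solar-labelled and grey symbols Lumen libraries, squares 14 DAF and circles 7 DAF, and the line at 0 marks equal levels. Solar-labelled libraries with a low share lie among the Lumen libraries, and those near 100% lie around 0.

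FAE1, in contrast to FAD2, was at the limit of what the rounded table can show. Both copies were listed at 0 in all 24 libraries at 7 DAF. At 14 DAF the A08 copy was above 0 in 8 of 24 libraries and the C03 copy in 6 of 24, with highest values of 12 and 7 TPM. Neither copy reached 1 TPM in 47% of the libraries, so neither entered the limma fit, and no fold change can be given against a level listed at 0.

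Late-sown Lumen held most of the signal at 14 DAF. The A08 copy had 12, 0 and 3 TPM under shading and 6, 3 and 1 TPM in controls there, and the C03 copy 7, 0 and 1 TPM under shading and 2, 1 and 0 TPM in controls. Optimally sown Lumen was at 0 for both copies in all 6 libraries. In Solar-labelled seeds, all 6 shaded libraries at 14 DAF were at 0 for both copies. Solar controls had 0, 4 and 0 TPM of A08 and 0, 4 and 0 TPM of C03 in the late date, and 0, 1 and 2 TPM of A08 and 0, 0 and 1 TPM of C03 in the optimal date. Replicates of one group thus differed by as much as 12 TPM, and a value of 0 occurred in every group except, for the A08 copy, the late-sown Lumen controls. In the order listed, the Solar share of the optimal-date Solar controls was 74.7%, 10.9% and 41.3%, against 100% in the late ones. Its part in the FAE1 values was not tested.

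**Figure D4:**
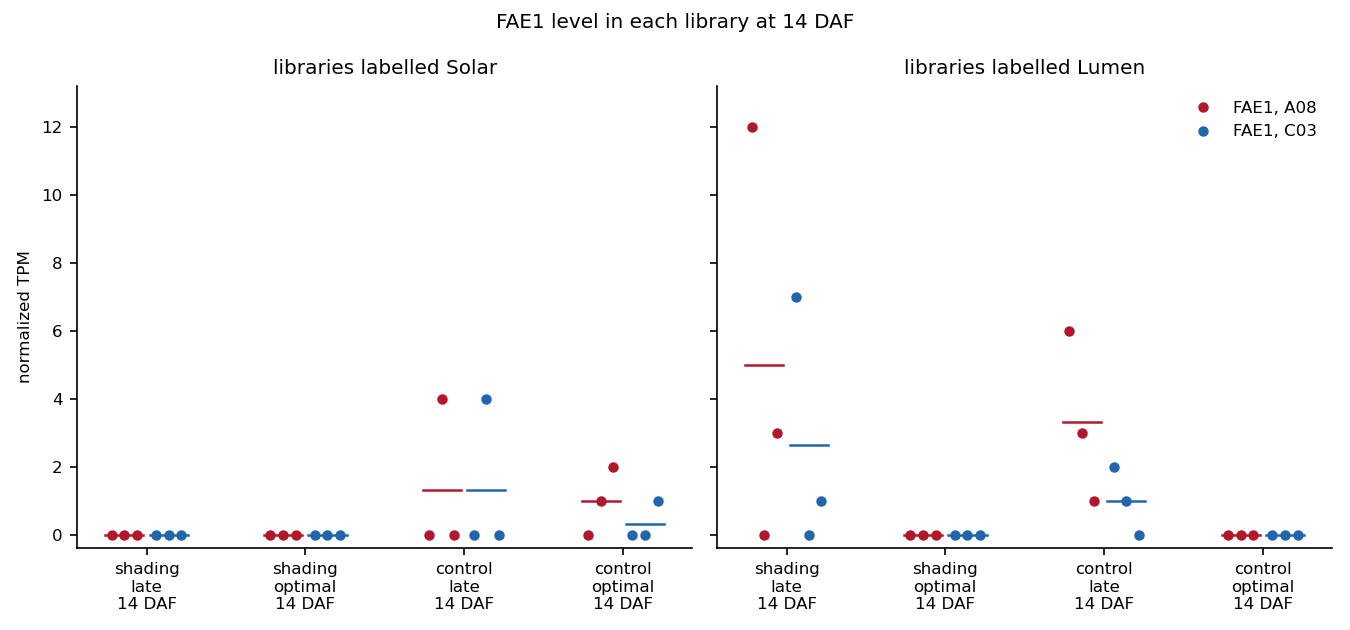
FAE1 level in each library at 14 DAF (normalized TPM, vertical axis) by S–S ratio and sowing date, Solar-labelled libraries on the left and Lumen on the right. Points are single libraries, red for the A08 copy and blue for the C03 copy, and lines are means of 3. Values above 0 occur in late-sown Lumen and in Solar controls, up to 12 TPM, and 0 is present in all groups for the C03 copy.

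Single-gene permutation tests, added after seeing the data, compared the levels. Between 14 and 7 DAF the mean difference of log2(TPM + 0.5), which depends on the added 0.5 TPM, was 0.94 for the A08 copy (2-sided permutation p = 0.00195, adjusted over 8 tests 0.0156) and 0.59 for the C03 copy (permutation p = 0.0199, adjusted 0.0798). In Lumen alone these time differences were 1.30 for the A08 copy (unadjusted permutation p = 0.0198) and 0.78 for the C03 copy (unadjusted permutation p = 0.0797). At 14 DAF the A08 copy was above 0 in 6 of 12 late-sown and 2 of 12 optimally sown libraries, a difference of 1.23 (permutation p = 0.0417, adjusted 0.111), and in 2 of 12 shaded and 6 of 12 control libraries (difference -0.64, permutation p = 0.192, adjusted 0.308). It was above 0 in 3 of 12 Solar-labelled and 5 of 12 Lumen libraries (difference -0.71, permutation p = 0.233, adjusted 0.311). Those 3 Solar-labelled libraries had Solar shares of 100%, 10.9% and 41.3%, and the part of the share in this difference was not tested. For the C03 copy no difference by sowing date, S–S ratio or genotype passed either (adjusted permutation p between 0.175 and 0.703). In Lumen libraries alone, the late minus optimal difference at 14 DAF was 2.59 for the A08 copy (unadjusted permutation p = 0.0194) and 1.57 for the C03 copy (unadjusted permutation p = 0.0799), and that between shading and controls -0.11 for the A08 copy and 0.26 for the C03 copy (unadjusted permutation p = 1 for each).

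The FAE1 copies appeared together. In 7 libraries the A08 copy was the higher one and in none the C03 copy, while 1 Solar control library had 4 TPM of each. Over the 8 libraries with signal the mean log2 ratio, which depends on the added 0.5 TPM, was 1.06 ± 0.54 (SD; 2-sided exact permutation test of signs, p = 0.0156). In the 5 of them from Lumen it was 1.23 ± 0.31 (exact permutation test of signs, p = 0.0625, the smallest that 5 libraries allow). The other 16 libraries at 14 DAF have no ratio. Over the 48 libraries the log2 levels of both copies correlated with r = 0.94, which stayed at 0.95 after group means were removed. With the FAD2 copies, r was between 0.28 and 0.41 and, after removal of group means, between -0.05 and 0.13. These coefficients are descriptions over libraries in which most FAE1 values are 0.

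Transcripts of stored reserves were detected in the same libraries. BnaC03g08840D, annotated as a napin storage protein, was above 0 in exactly the 8 libraries at 14 DAF in which the A08 copy of FAE1 was, and at 0 in the other 40. BnaA07g14960D (OLE2), an oleosin of the oil body surface, was above 0 in 7 libraries, all of them among those 8. The shaded late-sown Lumen library with 12 TPM of FAE1 A08 also had the highest OLE2 (14 TPM), the highest napin (28 TPM) and the highest sum of all values (1219379 TPM). Only OLE2 was matched from the list of seed storage and oil body markers. The napin gene did not come from that list but was added singly by its annotation, and levels of other storage protein genes are not given here. The part of seed stage in the FAE1 values was not tested.

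The genes whose levels followed each member most closely were mostly without annotation in the study's readable tables. For the A08 copy of FAE1 they were BnaAnng07360D (r = 0.95 over 48 libraries, 0.92 with group means removed), BnaA01g28580D (0.94 and 0.89), BnaC06g08280D (0.93 and 0.92), BnaA09g30660D (0.93 and 0.84) and BnaC02g36310D (0.93 and 0.87). For the C03 copy they were BnaC03g24420D (r = 0.87, 0.82 with group means removed), BnaC08g02990D (0.87 and 0.84), BnaA01g26630D (0.87 and 0.85), BnaA01g28580D (0.87 and 0.86) and BnaA02g12440D (0.86 and 0.88). BnaA01g28580D was therefore on both lists, and 6 of the 10 entries had their highest value in the library with the most FAE1. Without that library r was 0.91 to 0.94 for the A08 list and 0.80 to 0.82 for the C03 list.

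With r = -0.27 between the FAD2 copies, no gene can have r near 0.90 with both, so their lists of closest genes could not overlap. For the A05 copy these were BnaA04g25070D (r = 0.93, 0.77 with group means removed), BnaA01g20970D (0.92 and 0.73), BnaA01g19100D (0.91 and 0.80), BnaA09g55080D (0.90 and 0.79) and BnaA05g08010D (0.90 and 0.81), an alpha/beta hydrolase matched to Arabidopsis AT2G36290. All 5 carry A-genome identifiers. For the C05 copy they were BnaC03g58190D, a lipid transfer protein matched to AT1G27950 (r = 0.92, 0.63 with group means removed), BnaCnng25540D (0.91 and 0.48), BnaC09g17220D, with a sterol-binding domain (0.90 and 0.74), BnaAnng22050D (0.90 and 0.47) and BnaA07g26920D, with a domain of unknown function (0.90 and 0.59). Of these 5, 3 carry C-genome identifiers, and the share of A- and C-genome identifiers among all genes tested was not counted. The genes closest to A05 were highest in Lumen libraries and those closest to C05 in late-sown Solar libraries, all at 14 DAF. This restates the pattern of the copies by which they were picked. Between the FAD2 copies themselves r was -0.27, and -0.45 after group means were removed.

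Other genes of seed oil synthesis were taken from a list by their Arabidopsis match, which found 31 genes besides the FAD2 and FAE1 copies, and their roles are those known from Arabidopsis. The readable annotation is incomplete and partly holds genes that the study selected on these samples, so the list is not independent evidence of a direction. Of the 31, all tested, 15 rose and 2 fell at 14 DAF against 7 DAF and 14 did not pass, with a median log2 fold change of 0.23, where 16.7% of all genes rose, 17.2% fell and the median was 0.00. With every library scaled to the same sum, 9 of the list rose. In Lumen alone 10 rose and 2 fell, where 21.3% of all genes passed in either direction. Between Solar-labelled and Lumen seeds 9 were higher, 8 lower and 14 not past the threshold, where 12.6% of all genes were higher and 13.6% lower. For sowing date 4 were higher and 1 lower in late-sown seeds (10.3% and 10.6% of all genes). In Lumen alone 7 were higher and 1 lower, where 12.2% of all genes passed in either direction. For shading 0 were higher and 1 lower (6.18% and 3.03% of all genes), and in Lumen alone likewise, where 3.15% of all genes passed in either direction.

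Among the desaturation genes, 4 of 6 rose with time and 1 fell, where 16.7% of all genes rose and 17.2% fell. FAD6 (BnaC01g07470D), the plastid counterpart of FAD2, averaged 21.0 ± 9.15 TPM at 14 DAF, against 11.1 ± 2.34 TPM at 7 DAF (SD, n = 24 each), a log2 fold change of 0.78 ± 0.079 (limma, adjusted p = 4.55e-10), and was the 1 gene of the list lowered by shading, by a log2 fold change of -0.55 ± 0.079 (limma, adjusted p = 3.59e-06). Of the acyl-ACP desaturases, which introduce the initial double bond, AAD1 (BnaA10g18080D) rose by 0.65, AAD5 by 0.32 (BnaA01g32860D) and 0.29 (BnaA03g28050D), and AAD3 (BnaA10g18090D), at -0.11, did not pass. AAD1 had a median of 1.0 TPM at both times, with ranges of 0 to 15 TPM at 14 DAF and 0 to 2 TPM at 7 DAF. FAD7 (BnaC03g37090D), a plastid desaturase that makes linolenic acid, fell by 0.45 at 14 DAF. All of these were far below FAD2 in level, with averages between 1.38 and 19.5 TPM over the series.

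Of the genes that work beside FAE1 in the elongation complex, CER10 (BnaC08g26140D), the enoyl-CoA reductase, rose by 0.17 ± 0.049 (limma, adjusted p = 0.00452), with 52.1 ± 9.20 TPM at 14 DAF and 46.3 ± 8.33 TPM at 7 DAF. The copies of PAS2, the dehydratase, did not pass, at 0.26 ± 0.15 (BnaC09g46070D) and 0.16 ± 0.15 (BnaA03g02950D). Their partners were thus detected in all 48 libraries while FAE1 itself was not. Of 8 other ketoacyl-CoA synthase genes matched, 7 were tested, of which 1 rose and 3 fell with time, where 16.7% of all genes rose and 17.2% fell. KCS7 (BnaA07g23630D) was at 0 in every library. The falling ones were KCS16 on A01 (BnaA01g02870D, log2 fold change -1.30) and C01 (BnaC01g04130D, -1.62) and KCS8 (BnaC07g04810D, -1.03), and the rising one was KCS16 on C07 (BnaC07g44970D, 0.46). That copy was close to the rounding limit, at 0 to 4 TPM with a median of 2.0 TPM at both times. KCS10 (BnaC04g38330D), which acts in cuticle formation, was the most abundant at 72.5 TPM and did not pass.

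WRI1, the transcription factor that activates plastid fatty acid synthesis, rose in 3 of 3 copies at 14 DAF. BnaA07g16350D ranged from 0 to 151 TPM at 14 DAF (median 6.0) and from 0 to 2 TPM at 7 DAF (median 1.0), a log2 fold change of 2.99 ± 0.35 (limma, adjusted p = 7.51e-09). BnaA09g34250D reached 113 TPM at 14 DAF (median 5.5) and 5 TPM at 7 DAF (median 3.0), with a log2 fold change of 1.32. BnaC08g25150D reached 162 TPM at 14 DAF (median 6.0) and 6 TPM at 7 DAF (median 4.0), with a log2 fold change of 1.19. The ranges overlapped, since many libraries at 14 DAF were near the level of 7 DAF. In plastid synthesis 4 of 14 genes rose and none fell, where 16.7% of all genes rose and 17.2% fell. KASI on C07 (BnaC07g19000D) was among the rising ones, at 0.23, while KASII (BnaC06g35760D, 0.07) and the ketoacyl-ACP reductase FabG (BnaA07g09030D, 0.06) did not pass. In oil assembly 3 of 5 rose, including the acyl-CoA synthetase LACS9 on C06 (BnaC06g20910D, 0.37). Of the acyltransferase LPAT2, the A07 copy (BnaA07g17400D) fell by 0.23 and the C08 copy (BnaC08g28660D), at -0.01, did not pass.

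**Figure D5:**
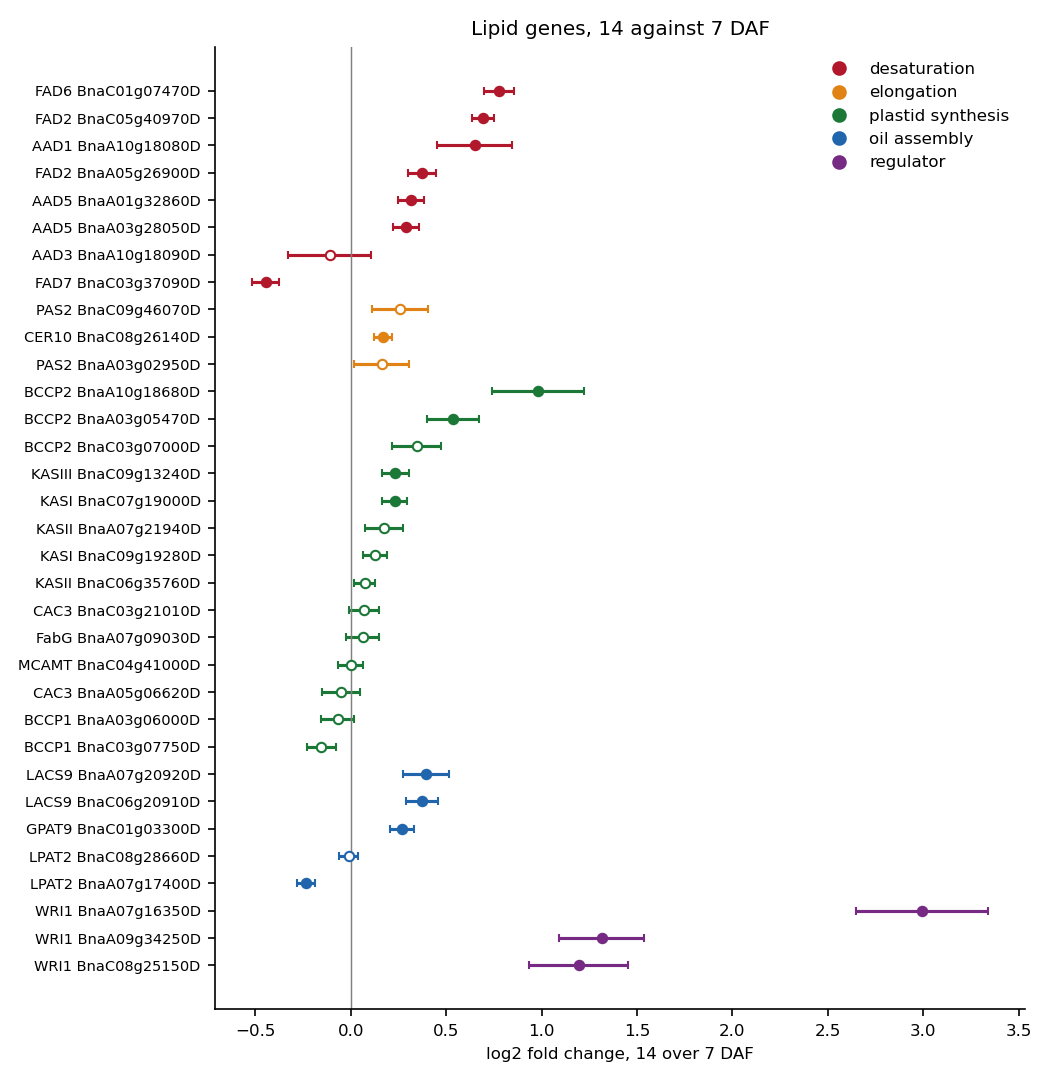
Log2 fold change between 14 and 7 DAF (horizontal axis) of the lipid genes and both FAD2 copies, grouped by role. Points are limma estimates with standard errors, filled where the adjusted p was under 0.01, and colours give the role. The WRI1 copies lie farthest to the right, the largest at 2.99, and the FAD2 copies stand at 0.69 and 0.37 among the desaturation genes.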

How the data were processed

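RNA of 48 seed libraries was quantified by the authors with kallisto 0.46 against a transcriptome of 101040 genes and normalized with sleuth. The deposited values are a score, the normalized TPM rounded by the authors to whole numbers, so counts and depth per value are unknown and precision is limited by the 3 replicates per group. All 48 columns matched a sample.

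Log2(TPM + 0.5) was analysed with no added scaling. The limma package (3.58.1; R 4.3.3; tables read by data.table, version 1.17.8) was given a model of time, genotype label, sowing date and S–S ratio with every interaction (15 terms), moderated standard errors and a trend of variance on mean. It covered the 53810 genes that reached 1 TPM in 47% or more of the libraries. Single contrasts came from the 16 group means of the same libraries. p-values were adjusted by Benjamini-Hochberg over all genes tested, at a threshold of 0.01. The code was tested on simulated data. The planned design assumed unrounded TPM, and the same log-scale test served the rounded score. Homoeolog ratios and FAE1 levels were tested with 2-sided permutation tests of 100000 resamples (scipy 1.17.1, numpy 2.4.6 and pandas 2.3.3 under Python 3.11.15), with labels exchanged within combinations of the other factors and adjustment over 8 tests. Plots were drawn with matplotlib 3.10.9.

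Named genes were the 4 members, the 5 tested genes with the highest Pearson r to each, and, of the lipid list, the elongation and desaturation genes, the WRI1 copies and the 6 most abundant of the other roles. The ketoacyl-CoA synthases and napin were named in addition. Marker lists covered seed storage and oil bodies, seed coat, endosperm (no gene matched) and pod wall. The members, lists and tests were chosen with earlier results of these data known. Alternatives were another pseudocount, other filters and scalings, a replicate block, Lumen alone and leaving out libraries. The p-values measure the spread between libraries within groups, taken as independent. In the field, main plots carried the sowing dates, subplots the S–S ratios and sub-sub plots the genotypes. The main fits and the permutation tests did not model these levels. Their p-values for sowing date and S–S ratio therefore do not measure the spread between main plots or subplots. No sequence is shown, since no reference used here carries these identifiers.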

Additional observations from a re-analysis of the deposited data

Results flagged for a closer look

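The time difference of FAD2 on C05 (BnaC05g40970D) differed between the genotype labels, by 0.49 on the log2 scale (limma interaction, adjusted p = 0.00607), with the larger rise in Solar-labelled seeds. The sowing date difference of FAD2 on A05 (BnaA05g26900D) also differed between them, by -0.57 (limma interaction, adjusted p = 0.00902). The Solar share of Solar-labelled libraries differed between the times and sowing dates, and its part in both differences was not tested.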

How the results depend on the processing

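The developmental time and genotype differences of both FAD2 copies kept their direction under every alternative run, and their call under all but 1: the time difference of A05 lost it without replicate 2 (0.29, limma adjusted p = 0.0106; 0.29 to 0.45 over all leave-out fits). The S–S ratio difference of neither copy passed in any of 63 alternatives. In Lumen alone (limma) the sowing date difference of A05 turned to 0.13 and that of C05 fell short at 0.14, and with libraries scaled to one sum that of A05 passed at -0.25.

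The sowing date by genotype interaction of A05 lost its call at -0.57 with no filter, with no variance trend and with the replicate block (replicate number, limma adjusted p = 0.0115; plot as a random block, 0.0102), at -0.54 with quantile normalization, at -0.53 scaled to one sum and at -0.56 without the closest pair of libraries (optimally sown Solar at 7 DAF, replicate 2). Leave-out fits gave -0.78 to -0.40, and 32 of 48 single libraries ended the call. The replicate block changed no other call. Little pairing by replicate number was seen over all genes tested: of 24 plot pairs, 1 had a correlation of deviations over 0.1 (-0.28 to 0.14). Such a correlation over many genes cannot settle whether libraries of one plot are paired for a single gene. The time by genotype interaction of C05 was 0.43 without the closest pair, where it lost its call, and 0.44 to 0.58 over leave-out fits, losing it without replicate 1, 2 or 3 (limma adjusted p between 0.021 and 0.0851). The 6 single libraries that ended it were at 14 DAF shaded late Lumen replicate 1, Solar control optimal replicate 3 and shaded optimal Solar replicate 1, and at 7 DAF, all optimally sown, Lumen control replicate 2, shaded Lumen replicate 1 and Solar control replicate 2. The closest pair, a control and a shaded library, had 218 and 216 TPM of A05 and 61 and 62 TPM of C05. Their genes above 0 numbered 53061 and 53059, and their Solar shares were 1.35% and 1.34%. Whether they came from the same sample was not tested, and the main fits used both as separate replicates.

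For the FAD2 ratio, the late minus optimal difference was -0.014 in Lumen alone and -0.47 with labels permuted over all libraries (permutation p = 0.0508). The 14 minus 7 DAF difference, under an unadjusted p of 0.05 at first, was -0.011 in Lumen alone, -0.32 with labels permuted over all libraries (permutation p = 0.188), -0.29 without the closest pair and -0.36 to -0.25 over leave-out tests. For FAE1 on A08, 9 of 24 leave-out tests took the late minus optimal difference over an unadjusted permutation p of 0.05. For FAE1 on C03, the time difference was 0.78 in Lumen alone (permutation p = 0.0797) and 0.59 in limma with no filter (adjusted p = 0.0285), and the shading difference turned to 0.26 in Lumen alone (permutation p = 1). With no filter FAE1 on A08 passed for time (limma adjusted p = 0.00151).

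Of the lipid genes, 9 rose with time when scaled to one sum and 10 in Lumen alone, against 15 as reported. With late sowing 7 were higher in Lumen alone, against 4 over all libraries. Of all genes, 21.3% passed for time and 12.2% for sowing date in Lumen alone, against 33.8% and 20.9% over all libraries. Leave-out fits gave 5 to 16 higher and 1 to 2 lower with time, and 3 to 12 lower in Solar. In late-sown seeds at 14 DAF alone, 5 were higher and 7 lower in Solar, where 17.7% of all genes passed in either direction. Over all genes, 11364 passed for time without replicate 3, against 18209. The cause of these changes was not tested. Depth is unknown, and rounding leaves levels under 0.5 TPM at 0, which limits FAE1 most.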
